A study of Mus musculus with 6 samples.

Results

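The genes described here are those of the oxysterol axis and of cholesterol efflux: Ch25h and Cyp7b1, which make and break down an oxysterol, the sterol-binding nuclear receptors Rora, Nr1h3 and Nr1h2, the exporters Abca1 and Abcg1, the lipoprotein gene Apoe and the esterifying enzyme Soat1. They were taken by symbol, 9 of the 55487 genes in the deposited tables, and all 9 had enough reads to be tested. RNA sequencing was done on mouse chondrocytes, the cells of cartilage, taken from knee cartilage of C57B/6 mice and given extracellular vesicles, the membrane particles that cells shed, from macrophages. In 3 libraries the vesicles came from macrophages with no named stimulus (M-EV), and in 3 from macrophages exposed to lipopolysaccharide, the endotoxin of bacteria (M-LPS-EV). Both groups received vesicles at 10 µg/ml of protein for 24 h, so each difference below is between the 2 vesicle preparations, and cells without vesicles were not analysed here. The labels do not say whether the libraries came from separate cultures, animals or vesicle preparations, and p-values therefore speak only of the spread between the libraries sequenced, part or all of which may be technical. Age, sex and the macrophage source were not given in the sources used here.

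Oxysterols are oxidised forms of cholesterol that signal that a cell holds enough of it. Ch25h encodes the enzyme that makes 25-hydroxycholesterol and is known as an inflammation-induced gene in macrophages, and Cyp7b1 encodes the hydroxylase that turns this oxysterol over. Oxysterols activate the liver X receptors (LXR), encoded by Nr1h3 and Nr1h2, which switch on Abca1 and Abcg1, pumps that load cholesterol onto lipoproteins, and Apoe, a lipoprotein component. ROR-alpha, the product of Rora, binds sterols and also drives genes of the circadian clock, while the product of Soat1 esterifies cholesterol for storage. In mouse cartilage the CH25H, CYP7B1 and ROR-alpha axis has been described as a driver of osteoarthritis.

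The promoters of Abca1, Rora and Ch25h are shown because these genes differed between the groups and belong to separate branches of the axis. Each sequence is the 250 bases before the RefSeq start (GRCm38.p6), written 5′ to 3′ on the strand of its gene, with motif matches in capitals. The Abca1 window lies at chr4:53159896-53160145 on the minus strand, the Rora window at chr9:68653536-68653785 on the plus strand, and the Ch25h window at chr19:34475149-34475398 on the minus strand. In GENCODE M21, the last 16 bases of the Ch25h window lie in the Ch25h exon and its first 16 in an exon of the opposite-strand noncoding gene Gm26902. No annotated exon overlaps the other windows.
Abca1: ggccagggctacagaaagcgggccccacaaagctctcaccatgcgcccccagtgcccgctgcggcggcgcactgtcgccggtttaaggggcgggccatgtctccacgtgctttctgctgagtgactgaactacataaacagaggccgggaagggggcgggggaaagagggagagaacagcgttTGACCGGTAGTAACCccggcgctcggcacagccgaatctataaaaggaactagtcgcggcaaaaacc
Rora: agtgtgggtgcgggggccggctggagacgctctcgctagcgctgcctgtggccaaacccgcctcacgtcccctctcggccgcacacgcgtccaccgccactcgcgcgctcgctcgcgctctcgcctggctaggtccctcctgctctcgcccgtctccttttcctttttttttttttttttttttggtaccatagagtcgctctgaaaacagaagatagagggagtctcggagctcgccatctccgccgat
Ch25h: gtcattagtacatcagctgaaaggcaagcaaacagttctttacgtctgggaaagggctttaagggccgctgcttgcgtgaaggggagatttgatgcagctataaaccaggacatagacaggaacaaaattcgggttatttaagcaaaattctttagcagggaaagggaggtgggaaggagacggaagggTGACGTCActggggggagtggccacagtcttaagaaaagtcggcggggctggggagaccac

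The capitals in the Abca1 window, TGACCGGTAGTAACC from base -67, are a direct repeat of GGTTA and CGGTCA with 4 bases between them, read on the opposite strand. This is the form in which the LXR element of Abca1 is known, and it was searched for after the sequence had been seen. Of 32851 RefSeq windows of 300 bases (250 before to 50 after the start), 4 held it (0.0122%, both strands), and Abca1 was the only member among them. The capitals in the Ch25h window are TGACGTCA from base -61, the palindromic cAMP response element, also looked for after the sequence was seen and present in 588 windows (1.79%). Windows were found for 7 of the 9 members, 10 windows in all, with none for Cyp7b1 and Abcg1. The nuclear receptor motif AGGTCA was in 16.3% of all windows, 2 copies of it 4 bases apart in 0.0152%, and TAGGTCA, the ROR motif that contains it, in 2.61%. For NF-kB, GGG and TTTCC separated by 2 bases occurred in 1.63% of windows, and GGG and TTCC separated by 3 bases, which takes in every match to the first form, in 5.56%. The sterol response element occurred in 1.24%. None of these letters were in any of the members' windows.

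The library totals ran from 20239626 to 25712667 expected counts. Chondrocyte markers were abundant: 12 of them, Col2a1 and Acan among them, summed to between 138500 and 139500 CPM (counts scaled to library size, by TMM) with M-EV and between 115700 and 118000 with M-LPS-EV, and 10 of the 12 were lower with M-LPS-EV. The 14 macrophage markers summed to between 45.99 and 49.91 CPM and to between 49.04 and 54.85 CPM. Lyz2 (14.7 to 24.1 CPM over the 6 libraries) and Mertk (15.7 to 24.7 CPM) carried most of that sum, and Cd68 (1.91 to 3.10 CPM) and Csf1r (1.33 to 2.62 CPM) were also detected. Cx3cr1 was at 0 in all but 1 M-EV library, Fcgr1 reached at most 0.133 CPM, and Ptprc lay between 0.181 and 0.488 CPM. Of 14604 genes tested with edgeR's quasi-likelihood test, 4614 passed an adjusted p of 0.05 (31.6%), 2397 higher with M-LPS-EV (16.4%) and 2217 lower (15.2%). Against that background, 5 of the 9 members were higher with M-LPS-EV (Cyp7b1, Rora, Abca1, Ch25h and Nr1h2), 1 was lower (Soat1), and Nr1h3, Abcg1 and Apoe did not pass. The 2 groups did not overlap in CPM in 7 members, compared with 42.2% of all tested genes. The median log2 fold change was 0.37 over the members and 0.003 over all tested genes. The members and the related lists below were chosen with earlier results of these data known, so their counts beside these shares are descriptions only. Ch25h entered the test only through the group where it was high, and among the other 8 members 4 were higher and 1 lower, with a median of 0.25. In bulk RNA, a change in the number of cells of a type and a change of RNA per cell cannot be told apart.

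**Figure D1:**
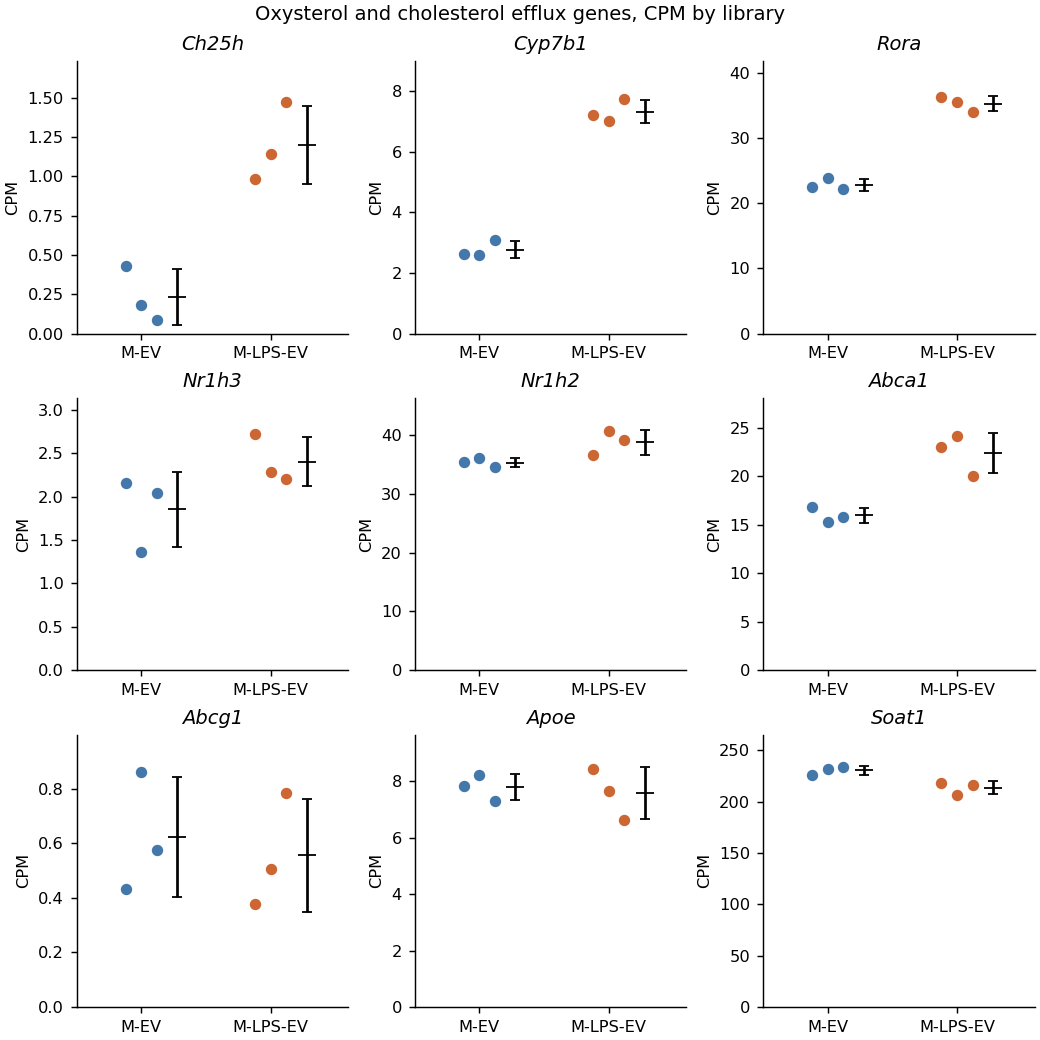
CPM of the 9 genes in each library (y axis, linear from 0, 1 panel per gene), with M-EV in blue, M-LPS-EV in orange, and the mean and SD of 3 libraries in black. The orange points lie above every blue point for Ch25h, Cyp7b1, Rora, Nr1h3, Nr1h2 and Abca1, below every blue point for Soat1, and among them for Abcg1 and Apoe.

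Per transcript length, the members covered a wide range. In TPM, the authors' level corrected for transcript length, Soat1 had the highest level with M-EV at 190.8 ± 5.88 (SD, n = 3), followed by Nr1h2 at 41.3 ± 2.08, Apoe at 14.3 ± 0.639 and Rora at 6.69 ± 0.840. Abca1 at 3.00 ± 0.288, Cyp7b1 at 2.47 ± 0.264 and Nr1h3 at 2.33 ± 0.186 followed, each overlapping the next in its libraries, and Ch25h at 0.347 ± 0.264 overlapped Abcg1 at 0.243 ± 0.0252. With M-LPS-EV the order was Soat1 at 167.1 ± 10.2 TPM, Nr1h2 at 42.6 ± 3.28, Apoe at 15.6 ± 2.71, Rora at 8.99 ± 0.779 and then Cyp7b1 at 6.46 ± 0.331. Below these came Abca1 at 3.86 ± 0.365 TPM, Nr1h3 at 2.90 ± 0.10, Ch25h at 1.75 ± 0.359 and Abcg1 at 0.307 ± 0.170, and no neighbours in this order overlapped. Cyp7b1 thus stood below Abca1 in mean level with M-EV, with overlapping libraries, and above it in every library with M-LPS-EV.

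Both enzymes of the oxysterol branch were higher with M-LPS-EV. Cyp7b1 (ENSMUSG00000039519, chr3:18071950-18243338, minus strand, mm10) was measured at 2.63, 2.585 and 3.10 CPM in the M-EV libraries and at 7.23, 7.015 and 7.74 CPM in the M-LPS-EV libraries. The lowest M-LPS-EV library lay far above the highest M-EV library. Means were 2.77 ± 0.287 and 7.33 ± 0.373 CPM (SD, n = 3 each), from 194 and 478 counts, and Cyp7b1 rose 2.64-fold with M-LPS-EV (log2 fold change 1.40, SE 0.13, 95% interval 1.13 to 1.68; edgeR adjusted p = 5.4e-09). This call held in each of the 17 alternative analyses, with log2 values from 1.11 to 1.49. The files list a single Cyp7b1 transcript of 2166 bases, so its value does not depend on how reads were divided between isoforms.

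Ch25h (ENSMUSG00000050370, chr19:34473778-34475164, minus strand), a gene with 1 exon and 1 transcript, was counted 11, 4 and 2 times in the M-EV libraries and 21, 27 and 30 times in the M-LPS-EV libraries. These counts gave 0.432, 0.181 and 0.0887 CPM with M-EV and 0.985, 1.14 and 1.47 CPM with M-LPS-EV, so every M-LPS-EV library was above every M-EV library at a level of few reads. Ch25h rose 4.86-fold (95% interval 2.71 to 8.71; log2 fold change 2.28, SE 0.41; edgeR adjusted p = 8.5e-05). No M-EV library and all 3 M-LPS-EV libraries reached the 0.444 CPM that the count filter asked for, so Ch25h could be tested only because it was high with M-LPS-EV. Without M-EV replicate 1, which holds 11 of the 17 M-EV counts, the log2 fold change was 3.10, and without each of the other libraries it lay between 1.91 and 2.40. Ch25h shares 159 of its 1387 exon bases with Gm26902 on the opposite strand, which had 6 counts with M-EV and 23 with M-LPS-EV. The library kit keeps strand, but whether the counting used it was not given in the sources used here, so the reads of this pair may be mixed.

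Macrophage markers moved in both directions beside Ch25h. Of 9 macrophage markers tested, 4 rose with M-LPS-EV: Lyz2, a lysozyme, by 0.52 on the log2 scale, Adgre1, which encodes F4/80, by 1.50, Cd14, a lipopolysaccharide co-receptor, by 1.18, and Itgam, an integrin chain, by 0.81. The call of Itgam was lost with DESeq2, with the length offset, on the TPM scales and without M-EV replicate 1 or 3 or M-LPS-EV replicate 2 or 3. Mertk, a receptor for the uptake of dead cells, fell by 0.43. C1qa, a complement subunit, went the other way from Ch25h, with 8, 14 and 15 counts in the M-EV libraries and 1, 0 and 1 in the M-LPS-EV libraries, too few to be tested. Cd68, Csf1r, Mrc1 and Tyrobp were tested and not called. Adgre1 lay between 0.576 and 0.903 CPM with M-EV and between 1.86 and 2.30 CPM with M-LPS-EV, above Ch25h in each group. The part of macrophage RNA in the Ch25h difference was not tested.

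Among the other genes of oxysterol metabolism, none of the 5 tested was called higher. With 16.4% of all tested genes called higher and 15.2% lower, 5 genes are too few to set the list apart. Of 11 further genes of oxysterol synthesis, breakdown and sensing, 5 were tested, and 1 was lower, with a median log2 fold change of 0.06. That gene was Cyp27a1, the sterol hydroxylase of mitochondria, at 4.67 ± 0.843 CPM with M-EV and 3.40 ± 0.371 CPM with M-LPS-EV (log2 fold change -0.46, SE 0.16; edgeR adjusted p = 0.026). All 3 M-LPS-EV libraries were below the M-EV libraries, but the call was lost in 7 alternatives: DESeq2, the length offset, both TPM scales, the test against a 1.2-fold change, and without M-EV replicate 1 or M-LPS-EV replicate 3. Cyp7a1, Cyp11a1 and Cyp3a11 had no counts in any library. Gpr183, the migration receptor for the oxysterol that CH25H and CYP7B1 make together, had 5 counts with M-EV and 3 with M-LPS-EV, too few to test.

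The genes whose values over the 6 libraries lay nearest to those of Ch25h, by Euclidean distance of log2 CPM centred on each gene, were Psmb8 (0.73), a subunit of the immunoproteasome, Bst1 (0.83), a cell surface NAD-cleaving enzyme, and Ehf (0.89), an ETS transcription factor. Their counts were also low, 6 with M-EV and 45 with M-LPS-EV for Psmb8, 18 and 90 for Bst1, and 30 and 127 for Ehf, beside 17 and 78 for Ch25h. Psmb8, Bst1 and Ehf reached the level of the count filter in 0, 1 and 2 M-EV libraries and in all 3 M-LPS-EV libraries. This is a description over 6 libraries.

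Rora (ENSMUSG00000032238, chr9:68653786-69388246, plus strand) was higher with M-LPS-EV. It was measured at 22.4, 23.9 and 22.25 CPM with M-EV and at 36.3, 35.5 and 33.99 CPM with M-LPS-EV, with the groups far apart against a narrow spread in each. Means were 22.9 ± 0.900 and 35.3 ± 1.18 CPM (SD, n = 3 each), and the log2 fold change was 0.63 (SE 0.05, 95% interval 0.52 to 0.73; edgeR adjusted p = 2.6e-10). With the effective transcript length of each library as an offset the value was 0.45 (adjusted p = 0.0077), and on log2(TPM + 1) with limma it was 0.38 (adjusted p = 0.046). In TPM the libraries held 6.45, 7.62 and 5.99 with M-EV and 9.60, 9.25 and 8.11 with M-LPS-EV, a smaller gap than in CPM and still without overlap. Rora shares 82 exon bases with the antisense gene Gm15511, which had no counts.

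The smaller gap in TPM can be followed in the transcripts that RSEM, the authors' quantifier, assigned to Rora. Rora-201, the protein-coding transcript of 10878 bases that starts at the upstream start, had 3.22, 3.19 and 3.17 TPM with M-EV and 5.05, 5.0 and 4.98 TPM with M-LPS-EV. Its means were 3.19 ± 0.0252 and 5.01 ± 0.0361 TPM, the tightest of the Rora transcripts, and every M-LPS-EV library was above. Rora-202, a protein-coding transcript of 2591 bases from an internal start at position 69289682, had 1.15, 1.85 and 1.45 TPM with M-EV and 3.08, 2.83 and 1.81 TPM with M-LPS-EV, and 1 library of each group crossed over. Rora-204, a noncoding processed transcript of 1422 bases from the upstream start, had 1.54, 2.58 and 1.37 TPM with M-EV and 1.47, 0.97 and 0.97 TPM with M-LPS-EV. It made up 26.9% ± 6.09 of Rora TPM with M-EV and 12.6% ± 2.49 with M-LPS-EV. Rora-204 rests on 88.7 expected counts with M-EV and 52.2 with M-LPS-EV, compared with 1367 and 2018 for Rora-201. A short transcript weighs more in a gene's TPM than in its counts. These transcript values are RSEM's estimates and are given without a test.

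**Figure D2:**
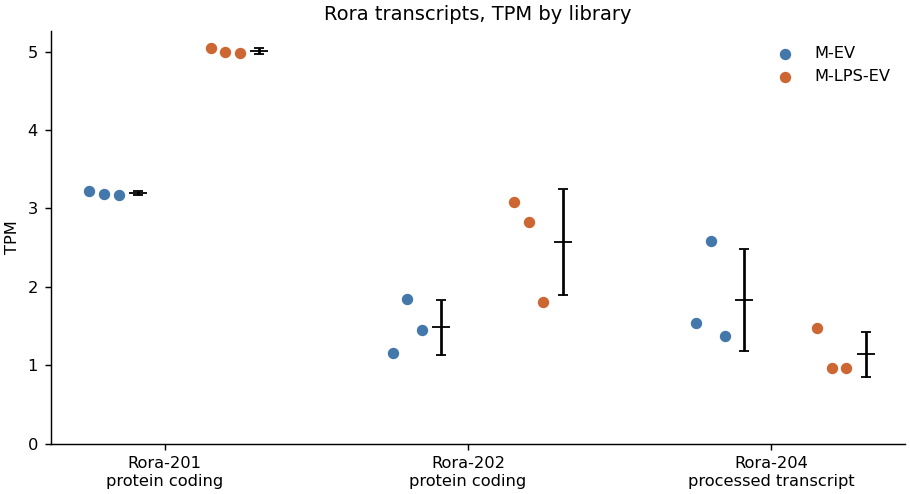
TPM (y axis, linear from 0) of the 3 Rora transcripts that held at least 10% of the gene's TPM, with M-EV in blue, M-LPS-EV in orange, and the mean and SD of 3 libraries in black. Rora-201 lies near 3.19 TPM with M-EV and near 5.01 with M-LPS-EV with almost no spread, whereas the groups overlap for Rora-202 and Rora-204.

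Genes of the circadian clock, several of them known targets of ROR-alpha, changed in both directions. Of 9 listed, all tested, 5 were higher and 3 lower with M-LPS-EV, with a median log2 fold change of 0.20. Over all tested genes 16.4% were higher and 15.2% lower. Npas2, a partner in the clock activator complex, had 7.85, 6.67 and 5.90 CPM with M-EV and 27.6, 27.8 and 25.7 CPM with M-LPS-EV, a wide gap (log2 fold change 1.98 ± 0.08 SE; edgeR adjusted p = 2.6e-16). Nfil3, a repressor that competes with DBP at D-box motifs, had 17.9 CPM with M-EV and 28.1 with M-LPS-EV (log2 fold change 0.65 ± 0.07 SE; edgeR adjusted p = 1.2e-08). Cry1 and Per2, repressors of the core loop, and Arntl, its activator, rose by 0.26, 0.26 and 0.20. Nr1d2, which encodes the repressor REV-ERB-beta that competes for ROR motifs, fell from 37.2 to 30.4 CPM (log2 fold change -0.29; edgeR adjusted p = 2.3e-05), and Clock and Dbp fell by 0.14 and 0.46. Nr1d1 was not called at a log2 fold change of 0.15 (edgeR adjusted p = 0.28). On the TPM scales 2 genes of this list were higher and 1 lower, and Arntl also lost its call with DESeq2, with the length offset and without M-EV replicate 3 or M-LPS-EV replicate 2. Tested against a 1.2-fold change, Arntl, Cry1, Per2, Nr1d2, Clock and Dbp lost their calls, so none of the lower genes stayed called. The labels give no time of day.

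Of the LXR genes, Nr1h2 passed the test with a small difference and Nr1h3 did not pass. Nr1h2, which encodes LXR-beta (ENSMUSG00000060601, chr7:44549616-44553951, minus strand), had 35.35, 36.1 and 34.5 CPM with M-EV and 36.55, 40.7 and 39.1 CPM with M-LPS-EV. The highest M-EV and lowest M-LPS-EV libraries nearly met. Its log2 fold change was 0.14 (SE 0.05, 95% interval 0.04 to 0.23, 1.10-fold; edgeR adjusted p = 0.027). That call was lost in 9 of 17 alternatives, including DESeq2 (adjusted p = 0.091), the length offset (log2 fold change 0.06, adjusted p = 0.60), both TPM scales and the removal of M-EV replicate 1 or 3 or of M-LPS-EV replicate 2 or 3. In those 4 removals the edgeR adjusted p was 0.070, 0.094, 0.17 and 0.056.

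Nr1h3, which encodes LXR-alpha (ENSMUSG00000002108, chr2:91184061-91202834, minus strand), had 2.16, 1.36 and 2.04 CPM with M-EV and 2.72, 2.28 and 2.20 CPM with M-LPS-EV. Every M-LPS-EV library was above every M-EV library, by a small margin next to the spread with M-EV. Its log2 fold change was 0.37 (SE 0.21, 95% interval -0.07 to 0.80), which did not pass (edgeR adjusted p = 0.20). At 30 to 58 counts per library, a rise of up to 1.74-fold and no difference are both within the interval. Nr1h3 shares 34 exon bases with Gm13783, which had 2 counts in all.

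Of 11 partners of these receptors, 9 were tested, 2 were higher and 1 lower, with a median log2 fold change of 0.02. This share called is near the 31.6% of all tested genes. Nrip1, the corepressor RIP140, had 23.6, 21.8 and 25.2 CPM with M-EV and 33.7, 29.6 and 31.1 CPM with M-LPS-EV, without overlap, a difference of 0.42 ± 0.06 in log2 CPM (SE of the fit; adjusted p = 3.5e-06, edgeR). Rxra, the partner with which LXR binds DNA, rose from 62.3 to 68.8 CPM (log2 fold change 0.15; edgeR adjusted p = 0.0052), and Ncoa2, a coactivator, fell by 0.16. Both calls were lost with the length offset and on the TPM scales, where the Rxra value was larger, between 0.21 and 0.23, and that of Ncoa2 smaller, between -0.10 and -0.09. The calls of Rxra and Ncoa2 were also lost against a 1.2-fold change.

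Of the 2 exporters, Abca1 was higher with M-LPS-EV and Abcg1 did not pass. Abca1 (ENSMUSG00000015243, chr4:53030787-53159895, minus strand), the pump that loads lipid-poor apolipoproteins and whose promoter is printed above, had 16.8, 15.3 and 15.8 CPM with M-EV and 23.0, 24.1 and 20.1 CPM with M-LPS-EV. All M-LPS-EV libraries were above the M-EV libraries. Means were 15.98 ± 0.746 and 22.4 ± 2.09 CPM (SD, n = 3 each), and Abca1 rose 1.40-fold (log2 fold change 0.49, SE 0.07, 95% interval 0.35 to 0.63; edgeR adjusted p = 3.6e-06). The call was lost on log2(TPM + 1), at 0.28 (limma adjusted p = 0.11), and on log2(TPM + 0.1), at 0.35 (limma adjusted p = 0.12). In M-EV replicate 2, RSEM gave the full-length transcript (ENSMUST00000030010) only 78.6% of the gene's 3.32 TPM, and 100% in each of the other 5 libraries. That transcript itself had 2.92, 2.61 and 2.76 TPM with M-EV and 3.98, 4.15 and 3.45 TPM with M-LPS-EV, again with no overlap.

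Abcg1, the exporter to high-density lipoprotein (ENSMUSG00000024030, chr17:31057675-31117988, plus strand), was counted 11, 19 and 13 times with M-EV and 8, 12 and 16 times with M-LPS-EV. The libraries of both groups were mixed, between 0.375 and 0.862 CPM. Its log2 fold change of -0.16 had a 95% interval from -0.95 to 0.63 (SE 0.38; edgeR adjusted p = 0.81), which takes in the rise measured for Abca1, so a difference of that size was not detectable at this depth. Apart from Abca1 and Abcg1, 13 ABC transporters of sterols and lipids were listed and 11 were tested. The higher ones were Abca2, a transporter of lysosomal membranes, from 8.13 to 12.4 CPM (log2 fold change 0.62; edgeR adjusted p = 2.4e-06), and Abcb1b, from 14.7 to 20.5 CPM (log2 fold change 0.48; edgeR adjusted p = 1.6e-06). The call of Abca2 was lost on the TPM scales, at 0.49 and 0.63 (limma adjusted p = 0.065 and 0.070). The lower ones were Abca8a, from 4.84 to 2.47 CPM, and Abca5, which fell by 0.16 and lost its call under the settings that ended that of Nceh1 below. With the length offset Abca8a stood at -0.28 (adjusted p = 0.27), and Abca8a and Abcb1b each have a close paralog, Abca8b and Abcb1a, from which their reads may not be fully separated. The median log2 fold change of the list was -0.02, and its share called, 2 higher and 2 lower, is near the 31.6% of all tested genes.

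**Figure D3:**
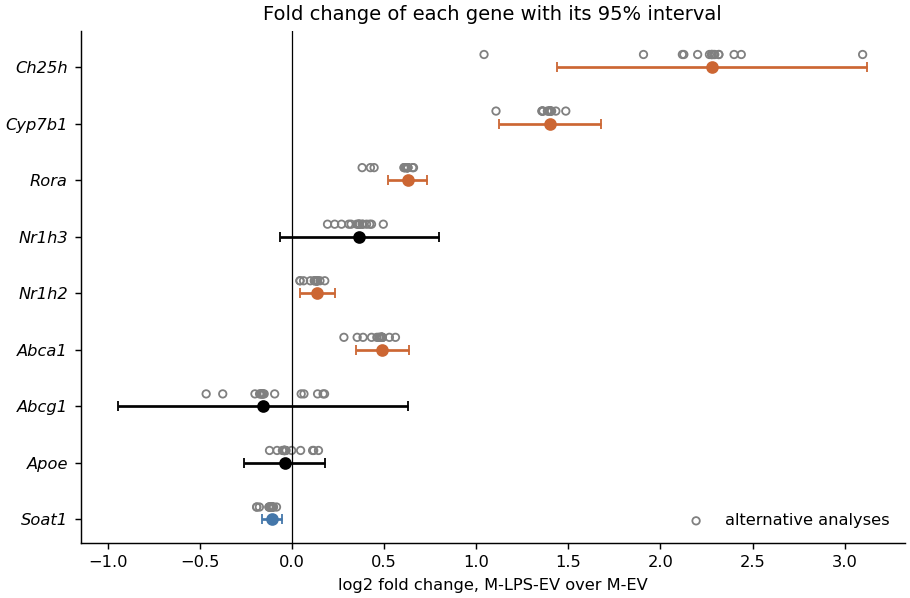
Log2 fold change, M-LPS-EV over M-EV (x axis), of each gene in the edgeR fit (filled points, bars are 95% intervals; orange called higher, blue called lower, black not called) and in the alternative analyses (open grey circles). The points of Cyp7b1, Ch25h, Rora, Abca1, Nr1h2 and Nr1h3 lie to the right of 0 in every analysis, those of Soat1 to the left, and the circles of Abcg1 and Apoe fall on both sides. The interval of Nr1h3 takes in 0, and the circles of Nr1h2 come close to it.

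Apoe (ENSMUSG00000002985, chr7:19696109-19699188, minus strand) had 7.85, 8.21 and 7.31 CPM with M-EV and 8.45, 7.65 and 6.61 CPM with M-LPS-EV. The M-LPS-EV libraries held both the highest and the lowest value, so the groups overlapped. The log2 fold change was -0.04 (SE 0.11, 95% interval -0.26 to 0.18; edgeR adjusted p = 0.83) and its interval leaves out a rise of the size measured for Abca1. The 11 Apoe transcripts share most of their sequence, and the shares RSEM gave them varied widely within a group. Apoe-209, for example, had between 22.3% and 70.6% of the gene's TPM in the M-LPS-EV libraries, so no transcript of Apoe is compared here.

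Other genes that LXR is known to activate mostly went the other way from Abca1. Of 15 such genes, 11 were tested, 1 was higher and 6 were lower, with a median log2 fold change of -0.14. Over all tested genes 16.4% were higher and 15.2% lower. The single higher gene was Mylip, the ubiquitin ligase that degrades lipoprotein receptors, at 11.4, 11.5 and 10.9 CPM with M-EV and 13.3, 13.5 and 14.6 CPM with M-LPS-EV. The log2 fold change was 0.29 (SE 0.08) with an edgeR adjusted p of 0.0043, and its call was lost on the TPM scales. Scd1, the fatty acid desaturase, had 361 CPM with M-EV and 225 with M-LPS-EV (log2 fold change -0.68 ± 0.02 SE; edgeR adjusted p = 7.1e-18). Lpl, lipoprotein lipase, fell from 57.2 to 43.3 CPM (log2 fold change -0.40, edgeR adjusted p = 1.4e-08), and Srebf1, the regulator of lipogenesis, from 272.5 to 229.8 CPM (log2 fold change -0.25, edgeR adjusted p = 1.2e-08). Fasn, Lpcat3 and Scd2 fell by 0.16, 0.17 and 0.11. Scd1 and Scd2 are close paralogs. With the length offset and on the TPM scales 5 of the list were lower, and Fasn lost its call. Tested against a 1.2-fold change, Srebf1, Fasn, Lpcat3, Scd2 and Mylip lost theirs.

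Soat1 (ENSMUSG00000026600, chr1:156424525-156474331, minus strand), the esterifying enzyme and the most abundant of the 9 genes, was slightly lower with M-LPS-EV. It had 226, 232 and 234 CPM with M-EV and 218, 207 and 216 CPM with M-LPS-EV, close but without overlap. Means were 231 ± 4.06 and 214 ± 6.12 CPM (SD, n = 3 each), 0.927-fold (log2 fold change -0.11, SE 0.03, 95% interval -0.16 to -0.06; edgeR adjusted p = 0.0017). Tested against 1.2-fold, it did not pass (edgeR adjusted p = 1.0). Its protein-coding transcript of 2925 bases (ENSMUST00000051396), which held about as much TPM as all others together, had 97.1 ± 2.74 TPM with M-EV and 82.9 ± 2.90 TPM with M-LPS-EV, with every M-LPS-EV library below.

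Of 6 other genes listed for cholesterol ester storage and release, all tested, 1 was higher and 1 lower, a share near the 31.6% called among all tested genes. The list includes Acat2, which encodes a thiolase of the sterol synthesis route and not an esterifying enzyme, and which was not called. Soat2, the second esterifying enzyme, had 7.34, 7.62 and 7.45 CPM with M-EV and 9.95, 10.6 and 10.4 CPM with M-LPS-EV, without overlap, a difference of 0.47 ± 0.09 in log2 CPM (SE of the fit; adjusted p = 2.2e-04, edgeR). In counts it stayed far under Soat1. The call of Soat2 was lost against a 1.2-fold change (edgeR adjusted p = 0.051). Nceh1, which releases cholesterol from its esters, fell from 14.3 to 11.4 CPM (log2 fold change -0.32; edgeR adjusted p = 0.0057), a call lost with the length offset, on the TPM scales, against a 1.2-fold change, and without M-EV replicate 3 or M-LPS-EV replicate 2.

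Genes of sterol uptake and synthesis were listed as well. Of 17 genes of uptake, lysosomal export and carriage, 15 were tested, 5 were higher and 3 lower, with a median of 0.03. Over all tested genes 16.4% were higher and 15.2% lower. Scarb1, the high-density lipoprotein receptor, had 52.8, 50.3 and 49.3 CPM with M-EV and 67.7, 69.8 and 65.6 CPM with M-LPS-EV, well apart, a difference of 0.41 ± 0.04 in log2 CPM (SE of the fit; adjusted p = 6.4e-09, edgeR). Vldlr, a lipoprotein receptor, and Npc2, a lysosomal sterol carrier, each rose by 0.25, and Gramd1b, which moves sterol to the endoplasmic reticulum, fell by 0.21. Of 24 genes of the SREBP-2 pathway of cholesterol synthesis, all tested, 1 was higher and 8 were lower, with a median log2 fold change of -0.07. The share called in either direction is near the 31.6% of all tested genes, of which 15.2% were lower. Insig1, the sterol-sensing retention factor, fell from 89.9 to 75.8 CPM (log2 fold change -0.25; edgeR adjusted p = 4.6e-06), Msmo1 by 0.25, Cyp51 by 0.22 and Fdps by 0.22. The higher gene, Srebf2, at a log2 fold change of 0.09, lost its call with the length offset, on the TPM scales, against a 1.2-fold change and without M-EV replicate 2. Vldlr, Npc2, Gramd1b, Insig1, Msmo1, Cyp51 and Fdps also lost their calls against a 1.2-fold change, and Gramd1b on the TPM scales too.

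**Figure D4:**
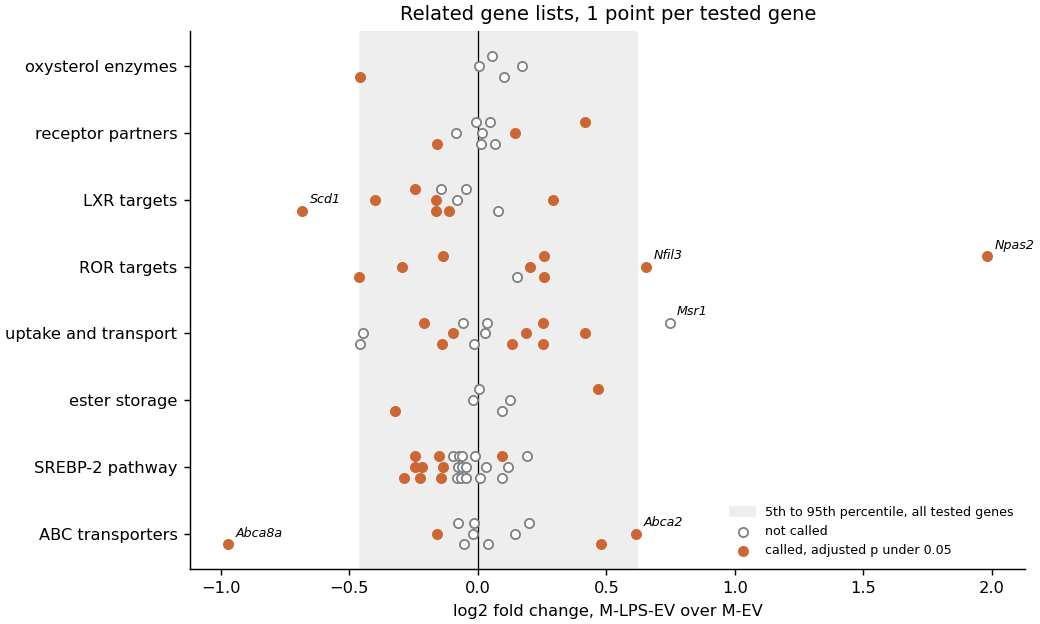
Log2 fold change, M-LPS-EV over M-EV (x axis), of each tested gene of 8 related lists (y axis, points spread vertically for legibility); orange points passed an adjusted p of 0.05, white points did not, and the grey band spans the 5th to 95th percentile of all tested genes (-0.46 to 0.62). Npas2, Nfil3, Abca8a and Scd1 lie outside the band, as does Msr1, which was not called. Cyp27a1, Dbp and Lcat lie at its lower edge, and most points of the SREBP-2 pathway lie just left of 0.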

How the data were processed

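The authors aligned and quantified the reads with STAR and RSEM on mm10, and also used DESeq2, per the submitters' processing notes. Versions, settings and the annotation were not given in the sources used here. The deposited tables hold, for 142699 transcripts per library, an expected count, TPM, the percent of the gene's TPM in each transcript and an effective length, per the file headers. Of the transcript IDs, 99.14% are in GENCODE M21, from which coordinates were taken. Expected counts were summed per gene and rounded.

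Genes with enough counts (edgeR filterByExpr, minimum 10, total 15) were scaled by TMM and compared with edgeR 4.0.16 (glmQLFit and glmQLFTest, R 4.3.3, 3 libraries against 3). P-values were adjusted by the Benjamini-Hochberg method over the 14604 genes tested, and an adjusted p under 0.05 was called. The fit was tested on simulated data. CPM use the TMM-scaled totals, and TPM are the authors' deposited values summed per gene. With 3 libraries a group, gene-level intervals rest on the pooled spread.

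The members and the related lists were chosen with earlier results of these data known, so their counts are descriptions. Named genes are the members, up to 4 called genes of each related list in order of adjusted p, and a few fixed genes (Insig1, Srebf1, Mylip and Gpr183), of which some are not reported here. For Ch25h the 3 nearest protein-coding genes were added, and transcripts were named from a share of 10% of gene TPM upwards. Other genes of the lists were named after their values were seen. Alternatives were other scalings (RLE, upper quartile), no filter, a filter of 50 counts on average, DESeq2 1.42.0, limma 3.58.1 (voom, and trend on log2 of TPM plus 1 or 0.1), an effective length offset, a test against 1.2-fold, a replicate block and leaving out each library. Same-numbered libraries of the groups had correlations of deviations of 0.028, -0.044 and -0.019, so the numbers were not taken as pairs. Markers of osteoblasts, adipocytes, endothelial and fibroblast-like cells were counted too and are given among the other observations. Promoters are from RefSeq, and figures were drawn with matplotlib 3.10.9. A planned comparison of protein sequences was not run.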

Additional observations from a re-analysis of the deposited data

How the results depend on the processing

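With the effective length offset 1539 genes were higher and 1329 lower, on log2(TPM + 1) 1280 and 1342, on log2(TPM + 0.1) 1284 and 1335, and against a 1.2-fold change 760 and 377, compared with 2397 and 2217. On each TPM scale 3 of the members were higher, in place of 5, and against a 1.2-fold change 0 were lower, in place of 1. The cause was not tested. With the replicate block 2346 genes were higher and 2173 lower, and 5 members were higher and 1 lower; it ended no call of a member. Abcg1 turned to 0.18 with the length offset and to 0.064 and 0.17 on the TPM scales, and without 1 library each it ranged from -0.47 to 0.14. Apoe turned to 0.14, 0.11 and 0.12, and ranged from -0.12 to 0.046 without 1 library each. Neither was called under any setting.

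Over the alternatives Ch25h ranged from 1.04, on log2(TPM + 1), to 3.10, Rora from 0.38 to 0.66, Abca1 from 0.28 to 0.56, Nr1h3 from 0.19 to 0.50 and Soat1 from -0.19 to -0.09. A mean count of at least 50 left out Ch25h, Nr1h3 and Abcg1. For the other genes named by rule, including the 3 nearest to Ch25h, 454 results kept direction and side of the threshold, 53 lost the call and 0 changed sign. Genes named after their values were seen are not in these totals, and some of them, such as Arntl, Fasn and Itgam, lost their calls under several settings. Depth limits Ch25h, Abcg1, Nr1h3 and Gpr183 most.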

Other observations

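Markers of other cell types were measured beside these genes. Of 8 markers of fibroblasts and synovium, all tested, 3 were higher and 3 lower with M-LPS-EV by edgeR, and their sum lay between 1392 and 1411 CPM with M-EV and between 1420 and 1467 CPM with M-LPS-EV. Of 5 osteoblast markers, 4 were tested, 1 was higher and 2 were lower, with sums of 73.4 to 75.2 CPM and of 58.8 to 66.8 CPM. The 5 adipocyte markers summed to between 1.46 and 1.88 CPM with M-EV and between 2.44 and 3.13 CPM with M-LPS-EV; 1 was tested and was higher, and Cidec and Lep were at 0 in every library. The 4 endothelial markers summed to at most 2.11 CPM, and the 1 tested was not called.

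Abca6, a lipid transporter of the ABCA family, had no counts in any M-EV library and 10 over the M-LPS-EV libraries, too few to be tested.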
